A study of Rattus norvegicus with 24 samples.

Results

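The genes described are 9 that code for extracellular matrix proteases, their activators and their inhibitors: Mmp2, Mmp14, Timp1, Timp2, Timp3, Plau, Plaur, Plat and Prss23. A probe set counted as one of theirs when the platform annotation gave it that gene symbol alone, which gave 17 probe sets of the 31042 tested and 9 genes of the 14217 measured. Each gene was read by its probe set with the highest mean over all arrays, and the other probe sets are given beside it. The cells were primary rat hepatocytes, the parenchymal cells of the liver, plated on collagen gel and measured on Affymetrix arrays. In one culture the cells stayed on a single collagen layer, called monolayer here. In the other, called sandwich here, a further collagen layer was laid over them a day after seeding. RNA was taken at days 1, 2, 3 and 8, counted in both cultures from the time of that overlay. This gives 8 groups of 3 arrays, 24 arrays in all. All groups shared the collagen type I gel and a serum medium with epidermal growth factor, insulin, glucagon and hydrocortisone, changed daily. The labels name no rat strain, age or sex, and do not say whether the 3 arrays of a group came from separate animals or cultures, so the p-values measure the spread between these arrays, which may be technical.

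Matrix metalloproteinases are zinc enzymes that cut collagens and other matrix proteins, and they are made as inactive precursors. The membrane-bound enzyme encoded by Mmp14 cleaves the precursor of the gelatinase encoded by Mmp2, and the inhibitor encoded by Timp2 takes part in that step as well as blocking the finished enzymes. The plasminogen activators encoded by Plau and Plat turn plasminogen, a liver-made plasma protein, into plasmin, a broad protease that cuts fibrin and matrix proteins. In the liver these genes are best known from stellate cells, macrophages and scarring tissue, while hepatocytes supply the plasminogen and many of the circulating protease inhibitors.

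The stretch just before the gene start is shown for Timp1, Timp2 and Plaur. They are shown because the tissue inhibitors of metalloproteinases Timp1 and Timp2 changed with time and differed between the cultures, and the urokinase receptor gene Plaur changed with time with no culture difference called. Each is the 250 bases before the start of the gene on the gene's strand, 5′ to 3′, from RefSeq's promoter table on rat build GRCr8, in which 5 of the 9 genes matched. Timp1 lies at chrX:3771123-3771372 on the minus strand, Timp2 at chr10:104089215-104089464 on the minus strand and Plaur at chr1:89181113-89181362 on the plus strand. Capitals mark matches, on either strand, to the AP-1-type motif TGANTCA or the TEAD-type motif GGAATG, which do not overlap here.
Timp1: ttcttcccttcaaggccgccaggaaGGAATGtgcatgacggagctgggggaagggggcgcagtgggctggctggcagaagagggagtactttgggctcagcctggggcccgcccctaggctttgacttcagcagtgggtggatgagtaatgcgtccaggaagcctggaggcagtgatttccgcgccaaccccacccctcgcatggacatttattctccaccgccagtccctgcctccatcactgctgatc
Timp2: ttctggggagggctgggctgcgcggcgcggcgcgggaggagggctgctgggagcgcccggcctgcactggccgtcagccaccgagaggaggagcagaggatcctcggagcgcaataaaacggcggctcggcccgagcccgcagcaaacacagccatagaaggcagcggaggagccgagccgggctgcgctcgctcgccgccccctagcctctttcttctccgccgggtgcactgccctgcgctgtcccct
Plaur: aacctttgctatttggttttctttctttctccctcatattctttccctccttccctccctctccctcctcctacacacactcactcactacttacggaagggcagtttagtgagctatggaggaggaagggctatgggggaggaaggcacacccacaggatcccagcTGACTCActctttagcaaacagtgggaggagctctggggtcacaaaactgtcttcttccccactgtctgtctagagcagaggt
The Timp1 stretch holds 1 TEAD-type match 225 bases before the start, the Plaur stretch 1 AP-1-type match 83 bases before it, and the Timp2 stretch neither. Of 27457 rat promoters of the same length, 11.8% hold the TEAD-type and 6.36% the AP-1-type motif. The GC box GGGCGG stands once in the Timp1 stretch and once in the Timp2 stretch, against 32.4% of promoters. Timp3 and Plau were searched too: each holds 3 GC boxes and no AP-1-type or TEAD-type match. These matches describe letters only, and no binding was measured.

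The values are log2 probe set levels as deposited, from 2.61 to 15.07, with array medians between 5.57 and 5.67, and arrays of 1 group correlated at 0.993 to 0.997 across probe sets. No detection calls come with the values, so where the lower of a pair of group means lay under the median of all values, 5.62, only the log2 difference is given and no fold. The number of arrays limits the precision. The hepatocyte label was checked against 9 markers, all of which lay above 5.62 in every group. Of 11 endothelial markers, Pecam1, Tek, Tie1, Stab1, Stab2, Lyve1, Vwf, Emcn and Kdr lay below it in every group and Egfl7 above it. The remaining one, Clec14a, was 3.18 at day 1 and 7.51 at day 8 in sandwich, against 3.05 and 3.44 in monolayer, and was higher in sandwich at day 8 by 4.07 (adjusted p = 1.81e-12). The stellate cell and fibroblast markers were split. Below 5.62 in every group were Lrat, Pdgfra, Lum, Dcn, Gfap and Ngfr, and above it in every group were Des, Pdgfrb and Acta2. Reln, Col1a1, Col1a2, Col3a1 and Rgs5 lay below it in some groups and above it in others. The 14 stellate cell and fibroblast markers averaged 4.96 at day 1 and 5.70 at day 8 in monolayer, and 5.03 and 5.61 in sandwich. The 11 macrophage markers averaged 6.64 and 7.04 in monolayer and 6.78 and 7.07 in sandwich. The 8 bile duct (cholangiocyte) markers averaged 5.30 and 6.56 in monolayer, and 5.32 and 5.50 in sandwich. The beta-actin 3′ minus 5′ probe set difference, a sign of RNA quality, was 0.82 ± 0.04 (SD, n = 12) in monolayer and 0.99 ± 0.11 (SD, n = 12) in sandwich. With a 3′ minus 5′ covariate in the model, 95 of 99 differences of the 9 genes kept their direction and their side of the threshold, and 1 call, that of Mmp2 at day 3, was lost. In such bulk RNA, fewer cells of a type and less RNA per cell cannot be told apart.

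The 9 genes were lower in sandwich or did not pass the test at every day, and more of them passed as the days went on. By day 8 the gelatinase gene Mmp2, the inhibitor genes Timp1 and Timp2, the tissue plasminogen activator gene Plat and the secreted serine protease gene Prss23 lay more than 1.5 log2 units below monolayer. Mmp14, the urokinase gene Plau and Timp3 lay 0.41 to 0.78 below it, and the receptor gene Plaur did not pass. At day 1, with each gene read by its brightest probe set, only Plat and Prss23 passed, 2 of 9 lower, where 1.75% of all genes were called lower and 0.823% higher. At day 2 it was 5 of 9 lower, Timp1, Timp2 and Timp3 joining, where 5.85% of all genes were called lower and 2.83% higher. At day 3 it was 7 of 9, Mmp2 and Mmp14 joining, where 11.8% were called lower and 10.9% higher. At day 8 it was 8 of 9, Plau joining, where 20.7% were called lower and 15.6% higher. The median difference of the 9 genes was -0.16, -0.80, -0.95 and -1.53 at days 1, 2, 3 and 8, where that of all genes measured lay between -0.01 and 0.01. The 9 genes were chosen with earlier results of these data known. Their counts and medians beside those of all genes, here and below, may restate that choice. A gene was called at an adjusted p under 0.05 by limma, two-sided, with Benjamini-Hochberg adjustment over 31042 probe sets. At an unadjusted p under 0.05, too, 0 of the 9 were higher in sandwich at any of the 4 days. The calls of Mmp2 at day 3 and Timp3 at day 8 are the weakest of these, as given with each gene.

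**Figure D1:**
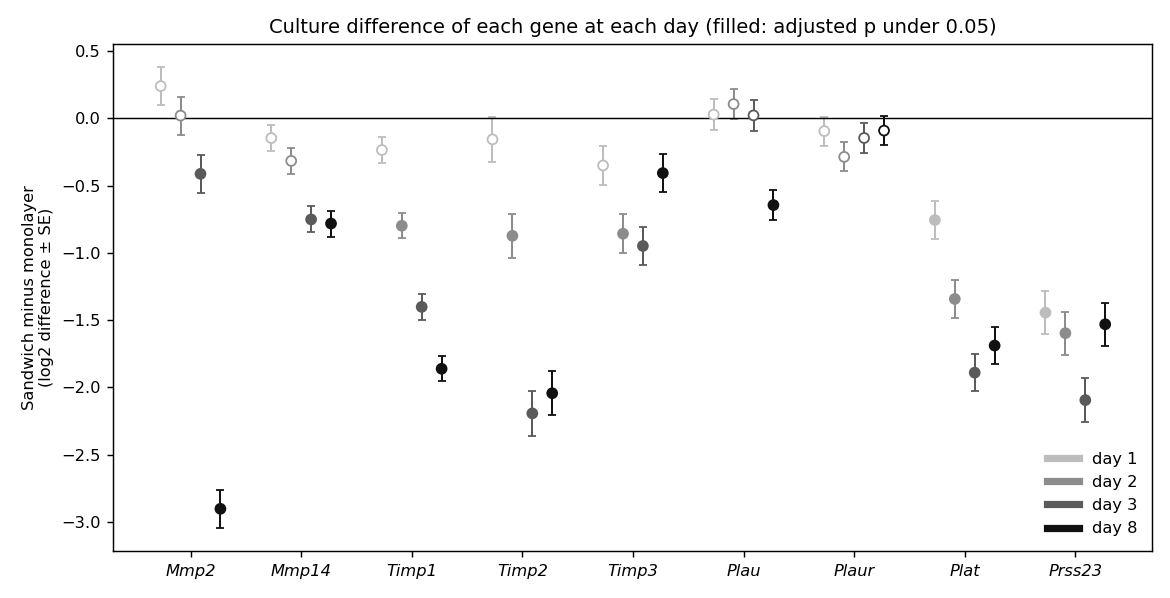
Sandwich minus monolayer difference (log2, ± SE) of the 9 genes at days 1, 2, 3 and 8, from the limma model over 24 arrays, with filled points for an adjusted p under 0.05. The Mmp2 difference goes from 0.02 at day 2 to -2.90 at day 8, Prss23 lies at or below -1.44 at each day, and the points of Plaur are all open.

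In monolayer 7 of the 9 genes rose from day 1 to day 3, namely Mmp2, Mmp14, Timp1, Timp2, Timp3, Plat and Prss23, and Plaur fell, where 11.1% of all genes rose and 15.1% fell. From day 3 to day 8, 6 of 9 rose (Mmp2, Mmp14, Timp1, Timp2, Plau and Plat) and 0 fell (limma), against 8.66% and 8.38% of all genes. Over the whole time from day 1 to day 8, 7 rose and 1 fell, against 17.5% and 21.2%, with a median change of 1.48 for the 9 genes and -0.01 for all genes. In sandwich, from day 1 to day 3, 3 rose (Timp1, Timp2 and Prss23) and 1, Plaur, fell, against 10.2% and 9.62% of all genes; whether this early change differed between the cultures was not tested. That count was 2 of 9 called, in place of 4, without sandwich day 1 replicate 2, where Timp2 (adjusted p = 0.104) and Prss23 (0.0553) were lost, and Timp1 was lost without sandwich day 3 replicate 1 (0.0711). From day 3 to day 8, 5 rose in sandwich (Mmp14, Timp2, Timp3, Plat and Prss23) and 0 fell, against 7.01% and 8.10%. From day 1 to day 8, 5 rose (Timp1, Timp2, Timp3, Plat and Prss23) and 2 fell (Plau and Plaur), against 14.3% and 17.5%, with a median of 0.47. Mmp14 from day 3 to day 8 in sandwich was not called without sandwich day 8 replicate 1 (adjusted p = 0.0563), Timp3 from day 1 to day 8 in sandwich without sandwich day 1 replicate 2 (0.0501), and Timp3 from day 1 to day 3 in monolayer without monolayer day 1 replicate 3 or day 3 replicate 3 (0.0588 and 0.0584). The same Timp3 call from day 1 to day 3 in monolayer was lost with the mean of all its probe sets (0.22, limma, adjusted p = 0.0873). That of Mmp14 from day 3 to day 8 in sandwich was lost with only the groups compared in the model (0.0527). At an unadjusted p under 0.05, too, 0 of the 9 fell from day 3 to day 8 in either culture. The 3 comparisons within a culture share arrays, and so do the culture comparison at day 8 and the changes to day 8.

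The change from day 1 to day 8 itself differed between the cultures for 6 of the 9 genes, all with a lower change in sandwich, where 10.5% of all genes had a lower and 11.3% a higher change there. These were Mmp2, Mmp14, Timp1, Timp2, Plau and Plat, each read by its brightest probe set. With the second probe sets of Mmp2, Mmp14, Timp2 and Plau the difference was not called. Timp1 and Plat have 1 probe set each. For Timp3, Plaur and Prss23 this difference was not called: it was -0.06 (95% interval -0.48 to 0.36), 0.00 (-0.31 to 0.32) and -0.09 (-0.56 to 0.38) on the log2 scale. Of these, Prss23 rose in both cultures from day 1 levels that differed, and Plaur fell in both from day 1 levels that overlapped.

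**Figure D2:**
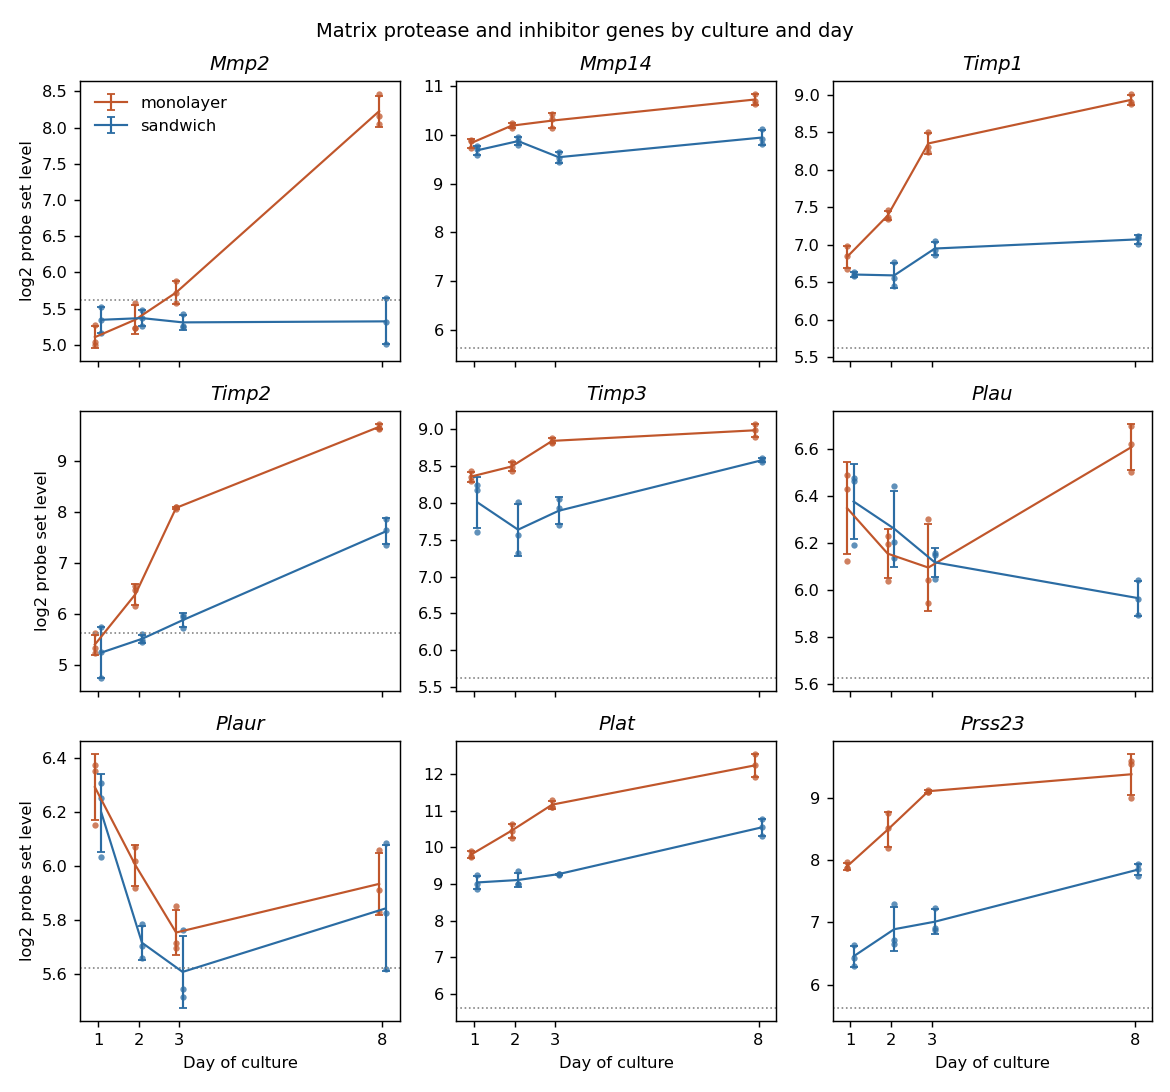
Log2 level of the 9 genes in each of the 24 arrays (points), with the mean and SD of 3 arrays per group joined by lines, by day of culture on a scale true to time. Dotted lines mark the median of all values, 5.62, and the vertical axes differ between panels. Mmp2 leaves the lower range in monolayer at day 8 at 8.23, while Prss23 is lower in sandwich from day 1.

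Mmp14 (probe set 1367860_a_at) codes for the membrane-type metalloproteinase that activates the Mmp2 product on the cell surface. Its monolayer arrays read 9.87, 9.72 and 9.90 at day 1, 10.25, 10.14 and 10.18 at day 2, 10.42, 10.13 and 10.32 at day 3, and 10.84, 10.70 and 10.64 at day 8. Its sandwich arrays read 9.58, 9.76 and 9.71, then 9.96, 9.86 and 9.79, then 9.44, 9.53 and 9.65, and at day 8 10.11, 9.81 and 9.91. The cultures overlapped at day 1 and were separate from day 2 on. The difference was -0.32 ± 0.10 (SE) at day 2, where the adjusted p of 0.0539 missed the threshold, -0.75 ± 0.10 at day 3 (adjusted p = 2.06e-06) and -0.78 ± 0.10 at day 8 (adjusted p = 5.63e-07), 1.72-fold lower in sandwich. Mmp14 rose 1.86-fold in monolayer from day 1 to day 8 (adjusted p = 5.10e-08). In sandwich that change was 0.26 ± 0.10 (adjusted p = 0.0505), not called, although the day 8 arrays all lay above those of day 1. Both of these missed calls passed when dim probe sets were left out before the adjustment (adjusted p = 0.0267 and 0.0284). The other probe set, 1378225_at, gave -0.28 at day 8 (adjusted p = 0.111) and a rise of 0.56 ± 0.13 in monolayer (adjusted p = 0.00119), so the size of the culture difference depends on the probe set.

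Mmp2 (probe set 1370301_at) codes for gelatinase A, which cuts denatured collagen and basement membrane collagen. In monolayer its arrays read 5.001, 5.28 and 5.04 at day 1, 5.24, 5.23 and 5.58 at day 2, 5.71, 5.57 and 5.89 at day 3, and 8.16, 8.05 and 8.47 at day 8. In sandwich they read 5.35, 5.52 and 5.17, then 5.37, 5.48 and 5.26, then 5.42, 5.25 and 5.26, and at day 8 5.01, 5.31 and 5.65. The 3 monolayer arrays of day 8 thus stood more than 2 log2 units above the other 21, and the sandwich arrays stayed near or under 5.62 throughout. The difference at day 8 was -2.90 ± 0.14 (adjusted p = 4.30e-14), with no fold since the sandwich level lies under that mark. Within monolayer, Mmp2 rose 5.68-fold from day 3 to day 8 (2.51 ± 0.14, adjusted p = 3.92e-12). In sandwich the change from day 1 to day 8 was -0.02 (95% interval -0.31 to 0.27). The day 3 difference, -0.41 ± 0.14 with an adjusted p of 0.0476, lost its call without monolayer day 3 replicate 1 (adjusted p = 0.0958) or 3 (0.214), or without any one of the sandwich day 3 replicates 1, 2 and 3 (0.0528, 0.132 and 0.125). The second probe set of Mmp2, 1369825_at, lay between 4.95 and 5.15 in all 8 groups and showed no culture difference at day 8 (-0.04 ± 0.14, adjusted p = 0.888), so the day 8 rise rests on 1 of the 2 probe sets.

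The late monolayer rise of Mmp2 ran beside markers of other cell types. The bile duct keratin Krt7 went from 3.72 at day 1 and 3.93 at day 3 to 7.23 at day 8 in monolayer, and from 3.79 to 4.01 at day 8 in sandwich. Krt19, another bile duct keratin, stood at 4.20 at day 1 and 7.97 at day 8 in monolayer, and at 4.23 and 4.78 in sandwich. Epcam, the brightest bile duct marker, stood at 8.99 at day 1 and 9.59 at day 8 in monolayer, and at 8.80 and 9.35 in sandwich. Its rise was called in both cultures, and its day 8 difference of -0.23 was not (limma, adjusted p = 0.212). Spp1 differed by 0.15 at day 8, not called either (adjusted p = 0.480). Of the 8 bile duct markers, 3 were lower in sandwich at day 8 and 0 higher (0 also at an unadjusted p under 0.05, limma). At that day 20.7% of all genes were called lower and 15.6% higher. Cftr, Muc1 and Cldn4 lay below 5.62 in every group, and Cldn4, at -1.63, is 1 of the 3 called lower. The bile duct marker levels were also summed on the linear scale, where the brightest marker weighs most. The log2 of that sum ran from 8.99 to 9.64 over the monolayer arrays of days 1, 2 and 3 and from 10.38 to 10.61 at day 8. In sandwich it ran from 9.29 to 9.61 and from 9.76 to 10.00. The fibrillar collagen genes Col1a2 and Col3a1 reached 8.14 and 7.29 at day 8 in monolayer, and 7.24 and 6.40 in sandwich, from levels below 5 at day 1. Both collagens thus rose in sandwich as well (adjusted p = 1.04e-08 and 4.81e-07), where no change of Mmp2 was called. Reln, of the same list, also rose from day 1 to day 8, by 1.14 in monolayer and 0.64 in sandwich. It was lower in sandwich at day 8 by -0.55 (limma, adjusted p = 8.24e-04). Other markers of that list were not lower in sandwich at day 8. Col1a1 rose from day 1 to day 8 too, by 0.61 in monolayer and 0.62 in sandwich. It stood at 5.90 in monolayer and 6.00 in sandwich at day 8, and its difference was not called (limma, adjusted p = 0.665). Rgs5 was higher in sandwich at day 8 by 1.84 (adjusted p = 3.12e-12). Of the 14 stellate cell and fibroblast markers, 3 were lower and 1 higher in sandwich at day 8. That is near the share of all genes, 20.7% lower and 15.6% higher. The summed level of these 14 markers at day 8 ran from 10.11 to 10.62 in monolayer and 9.80 to 10.41 in sandwich, so the cultures overlapped. At day 3, when 7 of the 9 genes were called lower in sandwich, the bile duct markers summed to 8.99 to 9.28 in monolayer and 9.29 to 9.46 in sandwich, and the stellate cell and fibroblast markers to 9.60 to 9.72 and 9.43 to 9.49. At day 3 the bile duct sums thus lay higher in sandwich and the stellate cell and fibroblast sums lower, neither with overlap. Of the macrophage markers, 9 of 11 were called higher in sandwich at that day and 0 lower (0 also at an unadjusted p under 0.05, limma). Of all genes 10.9% were called higher and 11.8% lower at day 3. These macrophage markers summed to 10.69 to 10.79 in monolayer and 11.32 to 11.44 in sandwich, with no overlap. At day 8 they summed to 11.67 to 11.92 and 11.44 to 11.83, with overlap. The part of these cell types in the differences of the 9 genes was not tested.

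**Figure D3:**
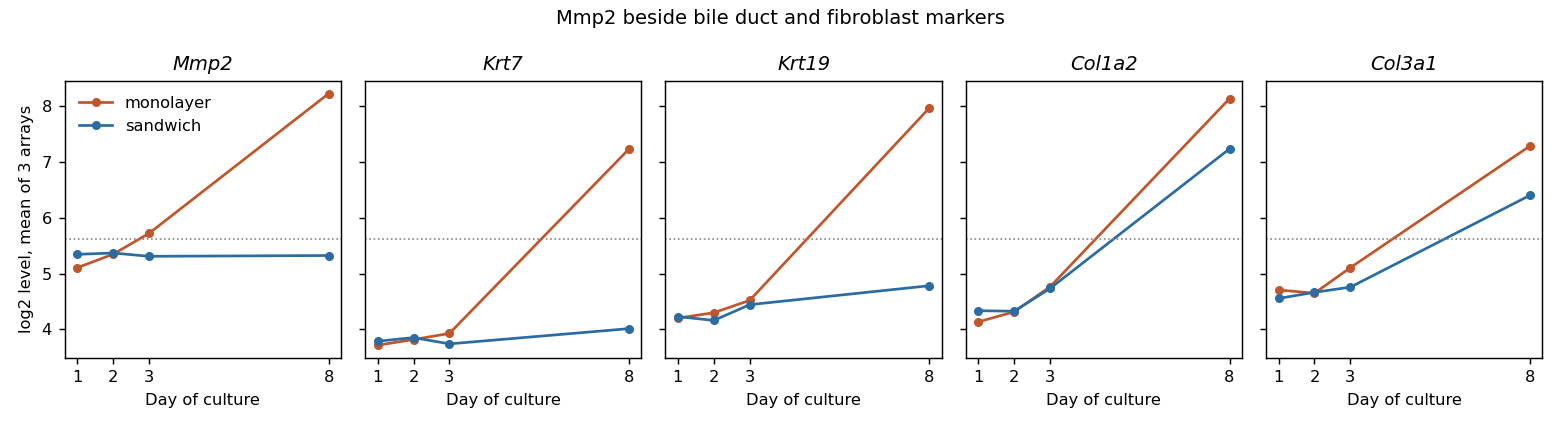
Group means (log2, 3 arrays each) of Mmp2, the bile duct keratins Krt7 and Krt19, and the collagen genes Col1a2 and Col3a1, by day in both cultures, with the median of all values dotted. In monolayer all 5 lie above 7 at day 8, and in sandwich only Col1a2 and Col3a1 pass 6.

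Timp1 (probe set 1367712_at) codes for a secreted inhibitor of metalloproteinases that is a common marker of liver injury. The monolayer arrays of Timp1 read 6.98, 6.86 and 6.68 at day 1, 7.35, 7.46 and 7.37 at day 2, 8.25, 8.31 and 8.51 at day 3, and 8.89, 8.90 and 9.02 at day 8. The sandwich arrays read 6.59, 6.64 and 6.59, then 6.45, 6.56 and 6.77, then 7.05, 6.87 and 6.94, and at day 8 7.12, 7.01 and 7.09. At each day all 3 monolayer arrays lay above all 3 sandwich arrays, though the day 1 difference of -0.24 ± 0.09 was not called (adjusted p = 0.303). The difference widened to -0.80 ± 0.09 at day 2, -1.40 ± 0.09 at day 3 and -1.86 ± 0.09 at day 8, 3.64-fold lower in sandwich (adjusted p = 8.29e-14). From day 1 to day 8 Timp1 rose 4.28-fold in monolayer (adjusted p = 6.63e-15) and 1.38-fold in sandwich (adjusted p = 4.31e-04). It has 1 probe set.

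Timp2 (probe set 1386940_at) codes for the inhibitor that binds the Mmp14 product and links it to the Mmp2 precursor. In monolayer its arrays read 5.62, 5.25 and 5.35 at day 1, 6.16, 6.54 and 6.47 at day 2, 8.09, 8.05 and 8.09 at day 3, and 9.72, 9.62 and 9.64 at day 8. In sandwich they read 5.26, 4.75 and 5.74, then 5.49, 5.45 and 5.61, then 5.94, 5.73 and 5.98, and at day 8 7.64, 7.85 and 7.35. The cultures overlapped at day 1 and were separate from day 2, and sandwich at day 8 had not reached monolayer at day 3. The difference was -2.19 ± 0.17 at day 3 (adjusted p = 2.73e-10) and -2.04 ± 0.17 at day 8, 4.12-fold lower in sandwich (adjusted p = 4.10e-10). Timp2 had the widest span of group means among the 9 genes, 4.41 log2 units. It rose by 4.25 ± 0.17 from day 1 to day 8 in monolayer (adjusted p = 3.57e-16) and by 2.37 ± 0.17 in sandwich (adjusted p = 4.32e-11). From day 3 to day 8 it rose 3.00-fold in monolayer and 3.32-fold in sandwich. The second probe set, 1367823_at, moved less: it rose by 0.69 ± 0.14 in monolayer over the 8 days (adjusted p = 2.98e-04), and its day 8 culture difference of -0.34 ± 0.14 was not called (adjusted p = 0.0709). Its culture differences at day 2 (0.13, adjusted p = 0.788) and day 3 (-0.16, 0.557) and its change in sandwich from day 1 to day 8 (0.15, 0.533) were not called either, so those Timp2 calls rest on 1 of its 2 probe sets.

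Timp3 codes for an inhibitor that binds to the matrix and also blocks proteases of the ADAM family. Its 4 probe sets were lower in sandwich at days 2, 3 and 8 alike, but they did not move alike with time. The brightest, 1389836_a_at, read 8.43, 8.35 and 8.29 at day 1 and 9.07, 8.90 and 8.99 at day 8 in monolayer, against 8.25, 7.61 and 8.17 and then 8.58, 8.55 and 8.61 in sandwich. In between it read 8.43, 8.49 and 8.56 at day 2 and 8.83, 8.81 and 8.88 at day 3 in monolayer, against 8.02, 7.33 and 7.57 and then 7.69, 7.93 and 8.06 in sandwich. The cultures did not overlap at any day. The difference was -0.35 ± 0.14 at day 1, not called (adjusted p = 0.322), -0.86 ± 0.14 at day 2, -0.95 ± 0.14 at day 3 (adjusted p = 2.14e-05) and -0.41 ± 0.14 at day 8 (adjusted p = 0.0362), 1.33-fold lower in sandwich. The day 8 call was lost without monolayer day 8 replicate 1 or 3 (adjusted p = 0.113 and 0.0828) or any one of the sandwich day 8 replicates 1, 2 and 3 (0.0750, 0.0868 and 0.0685), and when each array was centred on its median (0.0701). The other 3 probe sets, 1375138_at, 1372926_at and 1368989_at, gave -0.45, -0.56 and -0.50 at day 8, with adjusted p = 0.00107, 0.0147 and 5.51e-04. At day 3 they gave -1.68, -1.39 and -0.99. At day 1 they gave -0.43, -0.31 and -0.36, of which the first was called (adjusted p = 0.0220) and the others were not (0.524 and 0.0867), and the mean of all 4 was called too (-0.36, adjusted p = 0.0308), so the day 1 call of Timp3 depends on the probe set.

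From day 1 to day 8 in monolayer, 1389836_a_at and 1375138_at rose by 0.63 and 0.37, while 1372926_at fell by 0.54 and 1368989_at fell by 0.46, all 4 called. In sandwich the same split was seen, with rises of 0.57 and 0.34 and falls of 0.78 and 0.60. In sandwich the last 3 also fell from day 1 to day 3, by -0.90, -1.004 and -0.66, where the brightest gave -0.11 (adjusted p = 0.739). The time course of Timp3 therefore has no single direction across its probe sets, and the rises counted for it above are those of the brightest. Which transcripts the probe sets read was not analysed here.

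**Figure D4:**
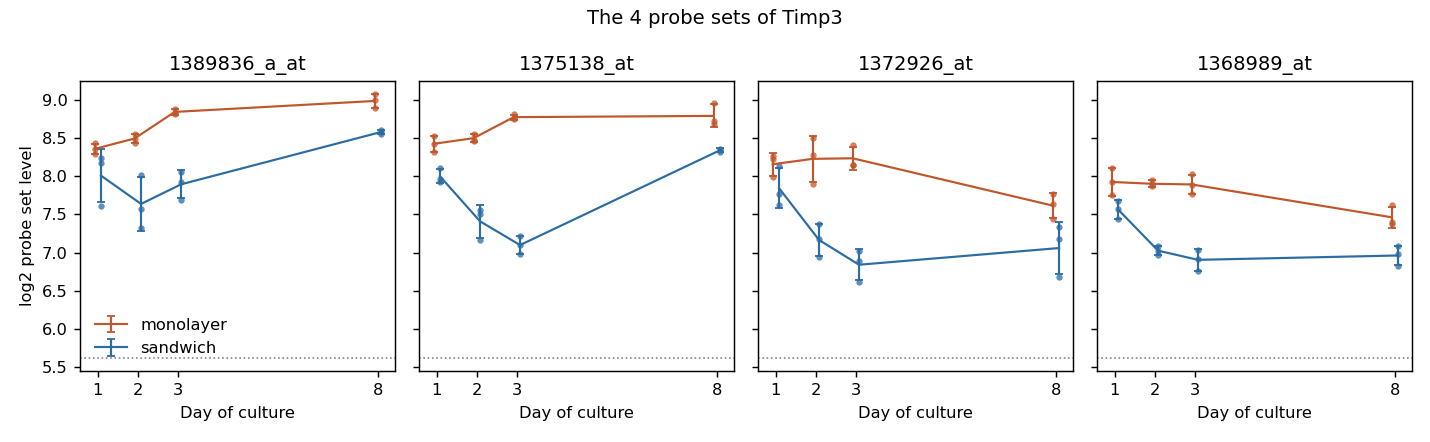
Log2 level of the 4 probe sets of Timp3 in each array (points) with the mean and SD of 3 arrays per group, by day in both cultures. Sandwich means lie below monolayer means at each day in all 4 panels, and from day 1 to day 8 the first pair rises and the last pair falls in both cultures.

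Plat (probe set 1367800_at) codes for tissue-type plasminogen activator, a secreted serine protease that activates plasminogen on fibrin. Its 3 arrays per day in monolayer read 9.74, 9.76 and 9.90 at day 1, 10.46, 10.64 and 10.26 at day 2, 11.29, 11.11 and 11.09 at day 3, and 12.53, 12.25 and 11.91 at day 8. Those in sandwich read 9.24, 9.01 and 8.88, then 8.99, 8.99 and 9.34, then 9.28, 9.28 and 9.25, and at day 8 10.76, 10.56 and 10.30. The cultures were separate at every day, and the sandwich arrays stayed within 0.5 of each other up to day 3. The difference was -0.76 ± 0.14 at day 1 (adjusted p = 0.00280), -1.34 ± 0.14 at day 2, -1.89 ± 0.14 at day 3 and -1.69 ± 0.14 at day 8, 3.23-fold lower in sandwich (adjusted p = 6.52e-10). Plat rose 5.40-fold from day 1 to day 8 in monolayer (adjusted p = 6.88e-13) and 2.83-fold in sandwich (adjusted p = 7.74e-09). In sandwich the rise came between day 3 and day 8 (2.41-fold, adjusted p = 4.54e-07), while the change to day 3 was 0.23 ± 0.14 (adjusted p = 0.364). It has 1 probe set.

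Plau (probe set 1387675_at) codes for urokinase, the other plasminogen activator, which acts on cell surfaces. In monolayer its arrays read 6.12, 6.43 and 6.49 at day 1, 6.20, 6.04 and 6.23 at day 2, 5.94, 6.04 and 6.30 at day 3, and 6.70, 6.62 and 6.50 at day 8. In sandwich they read 6.47, 6.48 and 6.19, then 6.14, 6.44 and 6.20, then 6.05, 6.15 and 6.16, and at day 8 5.89, 6.04 and 5.96. The cultures overlapped at days 1, 2 and 3 and parted at day 8. There sandwich lay below monolayer by -0.64 ± 0.11, or 1.56-fold (adjusted p = 7.23e-05). The second probe set, 1398287_at, gave -0.64 ± 0.16 (adjusted p = 0.00253). Plau rose 1.43-fold in monolayer from day 3 to day 8 (adjusted p = 0.00218), and fell 1.33-fold in sandwich from day 1 to day 8 (adjusted p = 0.00731). The monolayer changes of Plau from day 1 to day 3 (-0.25) and to day 8 (0.26) were not called, but the first was called without monolayer day 1 replicate 1 or day 3 replicate 3 (adjusted p = 0.0345 and 0.0438) and the other without monolayer day 1 replicate 3 (0.0487). Plat and Plau, whose products share a substrate, thus differed in timing, since the Plat difference was called from day 1 and the Plau difference at day 8.

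Plaur (probe set 1387269_s_at) codes for the urokinase receptor, which holds urokinase at the cell surface. The monolayer arrays of Plaur read 6.35, 6.15 and 6.38 at day 1, 5.92, 6.07 and 6.02 at day 2, 5.72, 5.85 and 5.70 at day 3, and 5.91, 5.83 and 6.06 at day 8. The sandwich arrays read 6.04, 6.25 and 6.31, then 5.66, 5.71 and 5.78, then 5.55, 5.76 and 5.52, and at day 8 5.62, 6.09 and 5.83. The cultures overlapped at days 1, 3 and 8, and at day 2 the sandwich arrays lay below with a difference of -0.29 ± 0.11 that was not called (adjusted p = 0.152). At day 8 the difference was -0.09 (95% interval -0.31 to 0.13). From day 1 to day 3 Plaur fell by 0.54 on the log2 scale in monolayer (adjusted p = 6.18e-04) and fell by 0.59 in sandwich (adjusted p = 3.01e-04). From day 1 to day 8 it fell by 0.36 in monolayer (adjusted p = 0.0122) and fell by 0.35 in sandwich (adjusted p = 0.0164). The monolayer call was lost without monolayer day 1 replicate 1 or 3 or day 8 replicate 2 (adjusted p = 0.0503, 0.0566 and 0.0653), and the sandwich call without sandwich day 1 replicate 2 or 3 or day 8 replicate 1 (0.0598, 0.0843 and 0.138). The second probe set, 1371286_at, lay between 3.79 and 4.10 in all groups. In monolayer it read 3.89 at day 1 and 3.93 at days 3 and 8, so the monolayer fall rests on 1 of the 2 probe sets. With the mean of both, the monolayer change to day 8 was -0.16 and not called (adjusted p = 0.0897). The sandwich call to day 8 was also lost with only the groups compared in the model (adjusted p = 0.0694).

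Prss23 (probe set 1373152_at) codes for a secreted serine protease of little-known substrate. In monolayer its arrays read 7.96, 7.87 and 7.87 at day 1, 8.52, 8.75 and 8.19 at day 2, 9.13, 9.10 and 9.09 at day 3, and 9.59, 9.54 and 9.00 at day 8. In sandwich they read 6.64, 6.43 and 6.29, then 6.72, 6.65 and 7.30, then 6.88, 7.24 and 6.91, and at day 8 7.93, 7.85 and 7.75. The cultures were separate at every day, and the sandwich arrays of day 8 overlapped the monolayer arrays of day 1. The difference was -1.44 ± 0.16 at day 1 (2.72-fold lower in sandwich, adjusted p = 4.61e-06), -1.60 ± 0.16 at day 2, -2.09 ± 0.16 at day 3 (4.27-fold, adjusted p = 3.92e-10) and -1.53 ± 0.16 at day 8 (2.89-fold, adjusted p = 4.27e-08). Prss23 rose 2.79-fold in monolayer (adjusted p = 6.20e-08) and 2.62-fold in sandwich (adjusted p = 2.67e-07) from day 1 to day 8. Its rise in sandwich from day 1 to day 3, 0.56 ± 0.16 (adjusted p = 0.0186), was not called without sandwich day 1 replicate 2 or 3 or day 3 replicate 2 (adjusted p = 0.0553, 0.0952 and 0.110). It has 1 probe set.

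When the 8 group means were put in order, monolayer at day 8 was the highest for 8 of the 9 genes, and monolayer at day 1 for Plaur. The lowest group was sandwich day 1 for Timp2, Plat and Prss23, sandwich day 2 for Timp1 and Timp3, sandwich day 3 for Mmp14 and Plaur, sandwich day 8 for Plau and monolayer day 1 for Mmp2. Of the 7 pairs of neighbours in that order, the arrays of 2 pairs overlapped for Timp2, of 3 for Timp1, Timp3, Plat and Prss23, of 5 for Mmp2 and Mmp14, of 6 for Plau and of 7 for Plaur. For Plaur, then, no group was separate from the next. For Mmp2, monolayer day 3 and monolayer day 8 were each separate from the next group below, and all other neighbours overlapped. For Prss23 all 4 sandwich groups came below all 4 monolayer groups.

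Across the 8 group means the genes followed each other to unequal degrees. These correlations describe 8 means that share the same arrays, and carry no test. Pearson's r was 0.955 between Timp2 and Plat, 0.947 between Timp1 and Plat, 0.948 between Plat and Prss23 and 0.926 between Timp1 and Timp2. Mmp14 correlated at 0.937 with Plat and 0.871 with Timp2, while the enzyme gene Mmp2 correlated at 0.818 with Mmp14 and 0.816 with Timp2. Plau correlated at 0.463 with its receptor gene Plaur and at 0.242 with Plat. Plaur ran from -0.256 with Timp2 to 0.463 with Plau.

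Other genes with a like pattern were sought among 1994 genes whose group means spanned at least 1 log2 unit, again by Pearson's r over 8 group means. For Mmp2 the nearest were Thbs3 (0.994), Sncg (0.993) and Spetex2l2 (0.992). For Mmp14 they were Dctd (0.983), Lats2 (0.977) and Dync2li1 (0.977). For Timp1 they were Pdk3 (0.997), Plscr2 (0.995) and Cmtm3 (0.994), and for Timp2 Soat1 (0.996), Igfbp7 (0.994) and Sncaip (0.994). For Timp3 they were Arpc1b (0.985), Rab11fip5 (0.975) and Ccng2 (0.972). For Plat they were Ywhaq (0.995), Paqr6 (0.995) and Tmem123 (0.991), and for Prss23 Tpbg (0.992), Slc25a24 (0.986) and Daam1 (0.986). Plau and Plaur spanned under 1 log2 unit and were left out of this search.

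The 9 genes were set beside 6 lists of related proteases and inhibitors, with 76 of 87 listed genes measured. At day 8, 17 of the 76 were higher and 25 lower in sandwich, against the 15.6% and 20.7% of all genes given above. The 6 lists did not share a direction. Of 15 other matrix metalloproteinases 3 were lower and 0 higher (0 also at an unadjusted p under 0.05, limma). Of 10 genes of the plasminogen system 4 were higher and 3 lower, of 13 other serine proteases 7 were higher and 2 lower, and of 17 protease inhibitors 6 were higher and 8 lower. The medians of these 4 lists were -0.04, 0.00, 0.44 and -0.28. Of 9 lysosomal cathepsins 5 were lower and 0 higher, and of 12 ADAM and ADAMTS proteases 4 were lower and 0 higher. Both of these lists had a median of -0.25 and are described in the closing section. The median of the 9 genes was -1.53. Since the 9 genes and the lists were chosen with earlier results of these data known, this contrast may restate that choice.

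**Figure D5:**
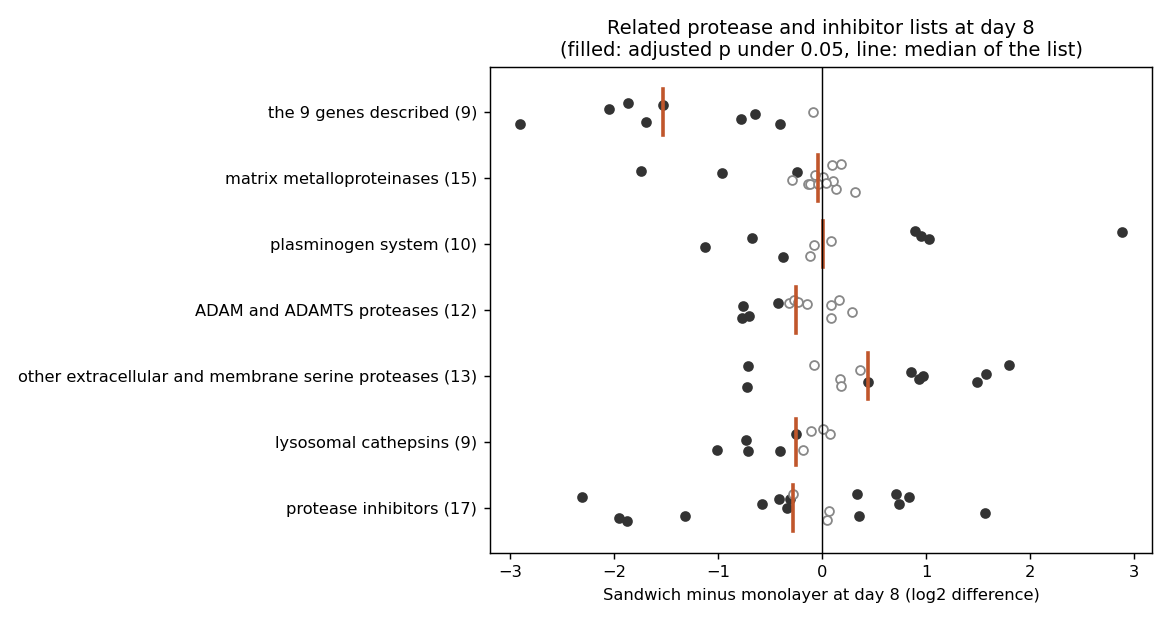
Sandwich minus monolayer difference at day 8 (log2) of each gene of the 9 and of 6 related lists, one point per gene with its list's size in brackets, filled where the adjusted p is under 0.05; vertical lines are list medians and the height of a point within its row has no meaning. The 9 genes all lie left of 0, from -2.90 to -0.09, while Plg lies at 2.89 and Serpinb9 at -2.31.

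Plg, the plasminogen gene and so the source of the substrate of the Plat and Plau products, went the other way. Over the 4 days in order its monolayer means were 10.40 ± 0.10, 10.27 ± 0.17, 9.66 ± 0.05 and 7.89 ± 0.39 (SD, n = 3). Its sandwich means were 11.01 ± 0.11, 11.16 ± 0.11, 11.50 ± 0.14 and 10.78 ± 0.15. Plg was 7.39-fold higher in sandwich at day 8 (2.89 ± 0.14 SE, adjusted p = 2.33e-14) and 1.54-fold higher at day 1 (adjusted p = 0.0133). It fell 5.67-fold in monolayer from day 1 to day 8 (adjusted p = 2.24e-13), and its change in sandwich, -0.24 ± 0.14, was not called. At day 8, then, the activator genes Plat and Plau were lower and the plasminogen gene higher in sandwich than in monolayer.

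Of the other genes of the plasminogen list, 3 more were higher in sandwich at day 8: Serpinf2, the plasmin inhibitor, by 0.95, Vtn, vitronectin, by 1.03 and Cpb2, a carboxypeptidase that slows fibrin breakdown, by 0.89. Lower were S100a10, which binds plasminogen at the cell surface, by -1.13 ± 0.07 (2.19-fold, adjusted p = 4.48e-12), its partner Anxa2 by -0.68 ± 0.08 (1.60-fold, adjusted p = 2.20e-07) and the plasminogen receptor gene Plgrkt by -0.37. The remaining 3 were not called, among them the cell surface receptor gene Lrp1 at -0.12 (adjusted p = 0.526). S100a10 rose 1.95-fold in monolayer over the 8 days (adjusted p = 7.32e-11), and its change in sandwich of 0.15 ± 0.07 was not called.

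Among the other metalloproteinases Mmp11, Mmp15 and Mmp16 were lower in sandwich at day 8, by -1.74, -0.97 and -0.24. Mmp16 had an adjusted p of 0.0365 (limma) and a highest group mean of 3.83, and Mmp11 lay between 4.55 and 4.83 in sandwich. Such levels lie under the median of all values, where background may enter. Mmp11, stromelysin 3, rose by 1.52 ± 0.12 in monolayer from day 1 to day 8 (adjusted p = 1.25e-10) to 6.55 ± 0.14 (SD, n = 3), and its change in sandwich was 0.11 ± 0.12 (adjusted p = 0.573). Mmp9, which codes for the other gelatinase, lay between 3.96 and 4.33 in every group, and its day 8 difference of -0.29 ± 0.11 was not called (adjusted p = 0.0568).

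The protease inhibitors outside the Timp genes were split as well. Serpinb9, an intracellular inhibitor of granzyme B, was lower in sandwich at day 8 by -2.31 ± 0.14 (4.97-fold, adjusted p = 1.14e-12), after rising 11.8-fold in monolayer and 5.54-fold in sandwich. Serpinb1a, an intracellular inhibitor of neutrophil proteases, was lower by -1.32 ± 0.12 (2.50-fold), and Cst6, a cystatin, by -1.87 ± 0.14. Serpinh1 was lower by -1.95, and although it is a serpin by sequence it codes for a collagen chaperone. Higher in sandwich were Slpi, a secreted inhibitor of leukocyte elastase, by 1.57 ± 0.11 (2.97-fold, adjusted p = 6.52e-11) and Itih3, of a hyaluronan-binding plasma inhibitor, by 0.84 ± 0.09. Slpi rose 7.57-fold in sandwich and 2.41-fold in monolayer over the 8 days. Timp4, the remaining Timp gene, was higher in sandwich by 0.33 at day 8 (adjusted p = 0.0457), with a highest group mean of 5.66, close to the median of all values, where background may enter.

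Among the other serine proteases, most called genes were higher in sandwich at day 8, unlike Plat, Plau and Prss23. F2, prothrombin, was higher by 1.58 ± 0.10 (2.98-fold, adjusted p = 5.81e-12), Hpn, the membrane protease hepsin, by 1.79, Pcsk6 by 1.49 and Klkb1, plasma kallikrein, by 0.93 ± 0.16. F2 fell 2.18-fold in monolayer from day 1 to day 8, and Klkb1 fell in both cultures, by -2.19 ± 0.16 in monolayer and -1.41 ± 0.16 in sandwich. St14 and Htra1 were lower in sandwich at day 8, by -0.72 and -0.71. The hepatocyte markers moved beside these plasma protein genes, with 7 of 9 higher in sandwich at day 8 and 0 lower. Of all genes 15.6% were called higher and 20.7% lower at that day. The part of the hepatocyte markers in these differences was not tested.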

How the data were processed

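RNA of primary rat hepatocytes was read on 24 Affymetrix arrays, 3 for each of 8 groups of culture and day taken from the labels. The authors deposited 1 table of log2 probe set levels, normalized between arrays. Per the submitters' processing notes RMA and limma were used, with no role or version named; the genome build and further settings are not given in the sources used here. The table holds 31099 probe sets; 57 controls were left out and 31042 tested. Of these 20826 carry 1 gene symbol, 436 several and 9780 none. A gene is read by its probe set with the highest mean, which gives 14217 genes.

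The values were fitted with limma 3.58.1 in R 4.3.3, with 1 mean per group over all 24 arrays and no covariate, and 11 contrasts, checked on simulated data. Within each comparison, the p-values of all 31042 probe sets were adjusted together (Benjamini-Hochberg), and calls were made at 0.05, two-sided. Shares of all genes called count 1 probe set per gene. SE is that of the model, SD that of the 3 arrays. The 9 genes and the lists were chosen with earlier results of these data known. Named list genes are the 6 of smallest adjusted p over all 6 lists in each of 3 comparisons (sandwich against monolayer at day 8, and day 8 against day 1 in each culture), with Plg, Mmp9 and Anxa2, and 1 further gene that is not reported here; Hpn, Pcsk6, St14, Htra1, Serpinf2, Vtn, Cpb2, Plgrkt, Serpinh1, Timp4, Mmp15, Mmp16 and the genes named in the closing section beyond that rule were chosen after their values were seen. The alternatives were quantile normalization, median centring, an intensity trend, only the groups compared, array weights, dim probe sets left out, the mean of all probe sets, a replicate block, a 3′ minus 5′ covariate, and each array left out.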

Additional observations from a re-analysis of the deposited data

Results flagged for a closer look

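The change from day 1 to day 8 was tested against itself between the cultures (limma, Benjamini-Hochberg over 31042 probe sets), and differed for 6 of the 9 genes. For the gelatinase gene Mmp2 it was lower in sandwich by -3.14 ± 0.20 (SE, log2; adjusted p = 3.37e-11), since only the monolayer level rose. For the inhibitor genes Timp2 and Timp1 it was lower by -1.89 ± 0.23 (adjusted p = 1.50e-06) and -1.63 ± 0.13 (adjusted p = 1.97e-09), with a rise in both cultures. For the activator gene Plat it was lower by -0.93 ± 0.20 (adjusted p = 0.00132), also with a rise in both. For Mmp14 the difference was -0.64 ± 0.14 (adjusted p = 0.00146), with a rise called in monolayer only. For the urokinase gene Plau it was -0.67 ± 0.16 (adjusted p = 0.00360), with a fall called in sandwich and no change called in monolayer. With the second probe sets of Mmp2, Timp2, Mmp14 and Plau the difference in change was -0.12, -0.55, -0.32 and -0.63 and was not called (adjusted p = 0.794, 0.0616, 0.286 and 0.0544). At day 8 the 3 monolayer arrays lay above the 3 sandwich arrays for each of the 6 genes.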

How the results depend on the processing

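Of the counts of called genes, 1 moved by more than 1.5 times: from day 1 to day 3 in sandwich, 4 genes were called and 2 to 4 with an array left out, 2 without sandwich day 1 replicate 2. The replicate numbers were not treated as pairs: 56 of 84 same-numbered pairs of arrays deviated together at r over 0.1 (lowest -0.43, median 0.20), and 15 of 24 arrays, not all, correlated best with their own number. With the replicate block, Mmp14 gained calls at day 2 (-0.32, adjusted p = 0.0351) and from day 1 to day 8 in sandwich (0.26, adjusted p = 0.0365), and no other call of the 9 genes changed. The turns of direction below are of differences not called in the report, apart from Timp3 from day 1 to day 8. Quantile normalization turned Mmp2 at day 2 (sandwich minus monolayer) to -0.0083. Array weights turned Plau at day 1 to -0.010 and at day 3 to -0.029, Mmp2 in sandwich from day 1 to day 3 to 0.029 and from day 3 to day 8 to -0.069, and the Plaur difference in change from day 1 to day 8 to -0.022. The mean of all probe sets turned Timp2 at day 1 to 0.024, Plaur at day 1 to 0.057, Mmp2 at day 2 to -0.046, Mmp2 from day 3 to day 8 in sandwich to -0.010, Plaur there to -0.011 and the Plaur difference in change to -0.17. It also turned Timp3 from day 3 to day 8 in monolayer to -0.22, and from day 1 to day 8 to -0.0025 in monolayer and -0.12 in sandwich, since its 4 probe sets differ in sign. The 3′ minus 5′ covariate turned Plaur at day 8 to 0.044, and Mmp2 in sandwich from day 1 to day 3 to 0.019 and from day 1 to day 8 to 0.032; the cause of these other turns was not tested. With 1 array left out, the sandwich minus monolayer difference ran from -0.084 to 0.12 for Plau at day 1, -0.054 to 0.13 for Plau at day 3, -0.039 to 0.14 for Mmp2 at day 2, -0.40 to 0.093 for Timp2 at day 1 and -0.21 to 0.021 for Plaur at day 8. In sandwich it ran from -0.13 to 0.052 for Mmp2 from day 1 to day 3, -0.15 to 0.17 from day 3 to day 8 and -0.18 to 0.13 from day 1 to day 8, and from -0.31 to 0.0049 for Timp3 from day 1 to day 3. The difference in change ran from -0.12 to 0.12 for Plaur, -0.28 to 0.021 for Prss23 and -0.26 to 0.062 for Timp3. With no detection calls, levels near or under 5.62 may hold background. This touches Mmp2, Timp2 at early days, Plau, Plaur, Mmp9, Mmp11, Mmp16, Cst6 and Timp4, among others.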

Other observations

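The lysosomal cathepsins and the ADAM and ADAMTS proteases, which also act on matrix or cell surface proteins, were lower in sandwich at day 8 where they were called, at which day 20.7% of all genes were called lower and 15.6% higher. Of 9 cathepsin genes 5 were lower in sandwich and 0 higher (0 also at an unadjusted p under 0.05, limma), with Ctsa at -1.01, Ctsb at -0.72 and Ctsh, cathepsin H, at -0.73 ± 0.08 (1.66-fold, adjusted p = 3.15e-08). Ctsl gave -0.18 (adjusted p = 0.0946). Ctsh rose in both cultures from day 1 to day 8, 2.27-fold in monolayer and 1.496-fold in sandwich. Of 12 ADAM and ADAMTS genes 4 were lower in sandwich and 0 higher (1 at an unadjusted p under 0.05, limma): Adam19 at -0.77, Adam9 at -0.76, Adam10 at -0.70 and Adam17, the shedding enzyme that Timp3 inhibits, at -0.43. Their median was -0.25, as was that of the cathepsins. The median of the 9 genes, chosen with earlier results of these data known, was -1.53. Adamts1, a protease of proteoglycans, rose late in both cultures, to 6.98 ± 0.37 in monolayer and 6.72 ± 0.55 in sandwich at day 8 (SD, n = 3), by 2.19 ± 0.20 and 2.24 ± 0.20 from day 1, with a day 8 difference of -0.27 ± 0.20 that was not called (adjusted p = 0.385). Adamtsl4, an Adamts-like matrix protein with no protease domain, rose 1.53-fold in monolayer and 1.90-fold in sandwich.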
